A study of Mus musculus with 8 samples.

Results

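The Max network is a set of 10 genes here, namely Mycn, Myc, Mycl, Max, Mxd1, Mxd3, Mxd4, Mxi1, Mnt and Mga. They were read through every probe set whose platform symbol is 1 of these names, 27 of the 45037 probe sets on the array, or 10 of 18193 named genes. The set was selected on the Mycn signal, which was lower with Cre in both leukemia lines. The change of Mycn with Cre is therefore a description with no test, while the other 9 genes, with 24 probe sets, were tested. All 27 entered the comparison of the lines without Cre, where the p-values of Mycn are a description too, since the selection used those arrays. A dim signal was taken as one at or below the 40th percentile of all probe sets, an intensity of 76.0 units. Of the 27 probe sets, 22 lay above it, and each of the 10 genes had at least 1 probe set above it.

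Total RNA of 2 mouse T cell leukemia lines on an FVB/NJ background was hybridised to 8 Affymetrix arrays, 2 for each of 4 groups. Both lines lack E2a (E2a-/-), a gene for bHLH transcription factors of the E protein family, which act in early lymphocytes. The E2a-/- line has Lef1 alleles that Cre cannot alter, whereas the Lef1F/F line (E2a-/-Lef1F/F) has floxed Lef1 alleles, from which Cre can remove the DNA between the loxP sites. Each received either the retrovirus MigR1, which marks cells with GFP, or MigR1-Cre, which adds the recombinase Cre, and GFP+ cells were collected 72 h after infection. Groups were taken from the sample titles, while another field of the labels gives the opposite vector for 2 of the 4 groups, namely E2a-/- cells with Cre and Lef1F/F cells with MigR1. In the Lef1F/F line, Lef1 was lower in the arrays titled Cre, as given below. The E2a-/- line has no such check, so calling its Mycn change a change with Cre rests on the titles. With 1 line per genotype, the effect of the genotype and any other difference between the lines cannot be told apart, and since the labels do not say whether the arrays of a group came from separate cultures, the p-values reflect the spread of these arrays alone.

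The series asked what loss of Lef1 changes in established E2a-deficient leukemia, with the E2a-/- line as the control for Cre itself. Median intensity lay between 88.9 and 91.0 on the 8 arrays. Lef1 fell with Cre in the Lef1F/F line by 1.87 on the log2 scale (adjusted p = 0.000703, limma), and read -0.05 in the E2a-/- line (adjusted p = 1). The summed intensity of 14 T cell markers was 36399 to 37225 in the E2a-/- line with MigR1 and 36401 to 36818 with MigR1-Cre. In the Lef1F/F line it was 35372 to 40722 with MigR1 and 37734 to 43907 with MigR1-Cre, the latter above all E2a-/- arrays. In MigR1 arrays 4 of these 14 genes were higher and 2 lower in the Lef1F/F line, at an adjusted p under 0.05 (limma). That was 42.9%, against 10.7% of all probe sets and 16.7% of those above the 40th percentile, with log2 differences from -2.97 to 1.22. The sums of the B cell (551 to 604), myeloid (705 to 741) and erythroid lists (491 to 554) were low on each array, and Cd79a (72.2), Ms4a1 (66.6), Lyz2 (92.1) and Hba-a1 (64.3 in E2a-/- MigR1 cells) had levels near those of dim probe sets. The stromal list stood at 4837 to 5078 in the E2a-/- and 991 to 1130 in the Lef1F/F line. Col1a2 carried that gap (4160 against 302 units with MigR1), while Col1a1 and Col3a1 were dim in both lines. The part of these marker differences in the line comparison below was not tested. In such bulk samples, fewer cells of a type and less RNA per cell cannot be told apart.

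Max is a small bHLH-zipper protein that pairs with each of the other members and lets them bind E-box DNA. Pairs of Max with Myc, Mycn or Mycl recruit coactivators and raise transcription of genes for growth, ribosome production and cell division. Pairs of Max with Mxd1, Mxd3, Mxd4, Mxi1 or Mnt recruit Sin3 and histone deacetylases and lower it, and Mga, a large protein that also has a T-box, joins Max in a Polycomb-type complex with E2f6. In T cell leukemia, MYC is known as a main target of activated Notch1, and MYCN is active in other leukemias and in neuroblastoma.

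The promoter of Mycn is shown because Mycn is the member that the set was selected on, and because TCF/LEF and E2F factors are among the regulators listed for it. It covers 250 bases before to 50 bases after the transcription start (RefSeq, GRCm38.p6, chr12:12941787-12942086, minus strand, written 5′ to 3′), and capitals mark the elements found. A TCF/LEF core was searched for as CTTTGA and also with its last letter changed, as CTTTGT. An E2F element was searched for as TTTGGCG and also in its other form, which reads TTTCGCG, and the E-box of the Max network as CACGTG, each on both strands.
Mycn promoter: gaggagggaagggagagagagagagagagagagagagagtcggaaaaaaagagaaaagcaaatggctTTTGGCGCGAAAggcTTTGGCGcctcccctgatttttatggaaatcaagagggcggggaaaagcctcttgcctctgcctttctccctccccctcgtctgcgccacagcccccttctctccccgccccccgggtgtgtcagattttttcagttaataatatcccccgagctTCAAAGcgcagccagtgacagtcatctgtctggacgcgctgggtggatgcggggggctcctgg
TTTGGCG began 183 and 168 bases before the start, and TTTCGCG, read on this strand as CGCGAAA, began 178 bases before it, so that it shares bases with the first element. The core CTTTGA, read as TCAAAG, began 13 bases before the start, and neither the E-box nor the other TCF/LEF form lay in these 300 bases. Among 32851 promoter windows of the same length, 16% held the TCF/LEF core ending in A and 18.7% that ending in T. The E2F element was held by 1.56% in its first form and by 0.849% in the other, and 7.15% held the E-box. RefSeq windows were at hand for 9 of the 10 members, 11 windows in all. CACGTG lay in those of Mxd4, Mnt and Max, beginning 219, 123 and 3 bases before the start, and the windows of the other members held none of the 5 elements. A match of letters is a description and not a site or a cause.

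Mycn was read at a high level in both lines, and each array with Cre lay below each array with MigR1. In the E2a-/- line the bright Mycn probe set (1425923_at) read 12653 and 11713 units with MigR1, against 6470 and 6640 with MigR1-Cre. In the Lef1F/F line it read 11049 and 9317 with MigR1, against 7353 and 5481 with MigR1-Cre. The MigR1 arrays of both lines thus lay between 9317 and 12653, and the MigR1-Cre arrays between 5481 and 7353, with no overlap. The level with Cre was 53.8% of that with MigR1 in the E2a-/- line (log2 difference -0.89) and 62.6% in the Lef1F/F line (log2 difference -0.68). The difference between these effects was 0.22 on the log2 scale, with the larger fall in the line whose Lef1 is unmodified. Without single arrays the log2 difference lay between -0.84 and -0.95 in the E2a-/- line and between -0.46 (without MigR1-Cre array 2) and -0.89 (without MigR1-Cre array 1) in the Lef1F/F line.

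Among all 45037 probe sets, the log2 difference of Mycn with Cre ranked 1 by size in the E2a-/- line, and 55 in the Lef1F/F line, where it was number 43 among the falls. Ordered by the smaller of both falls, Mycn ranked 1. It was the only probe set with a log2 difference of -0.5 or below in both lines, and 2 had -0.3 or below. The next in that order, Ccny, a cyclin Y gene, was the other of these 2, with log2 differences of -0.31 in the Lef1F/F and -0.33 in the E2a-/- line. These ranks use the values by which Mycn was selected. The other probe sets of Mycn were much dimmer. 1425922_a_at read 81.2 to 90.6 units on the 8 arrays, with log2 differences of -0.02 in the E2a-/- and 0.08 in the Lef1F/F line, and 1417155_at read 49.6 to 54.5 units, with 0.03 and 0.06. The fall was thus seen by 1 of 3 probe sets of the gene, and the probe sequences were not used here.

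**Figure D1:**
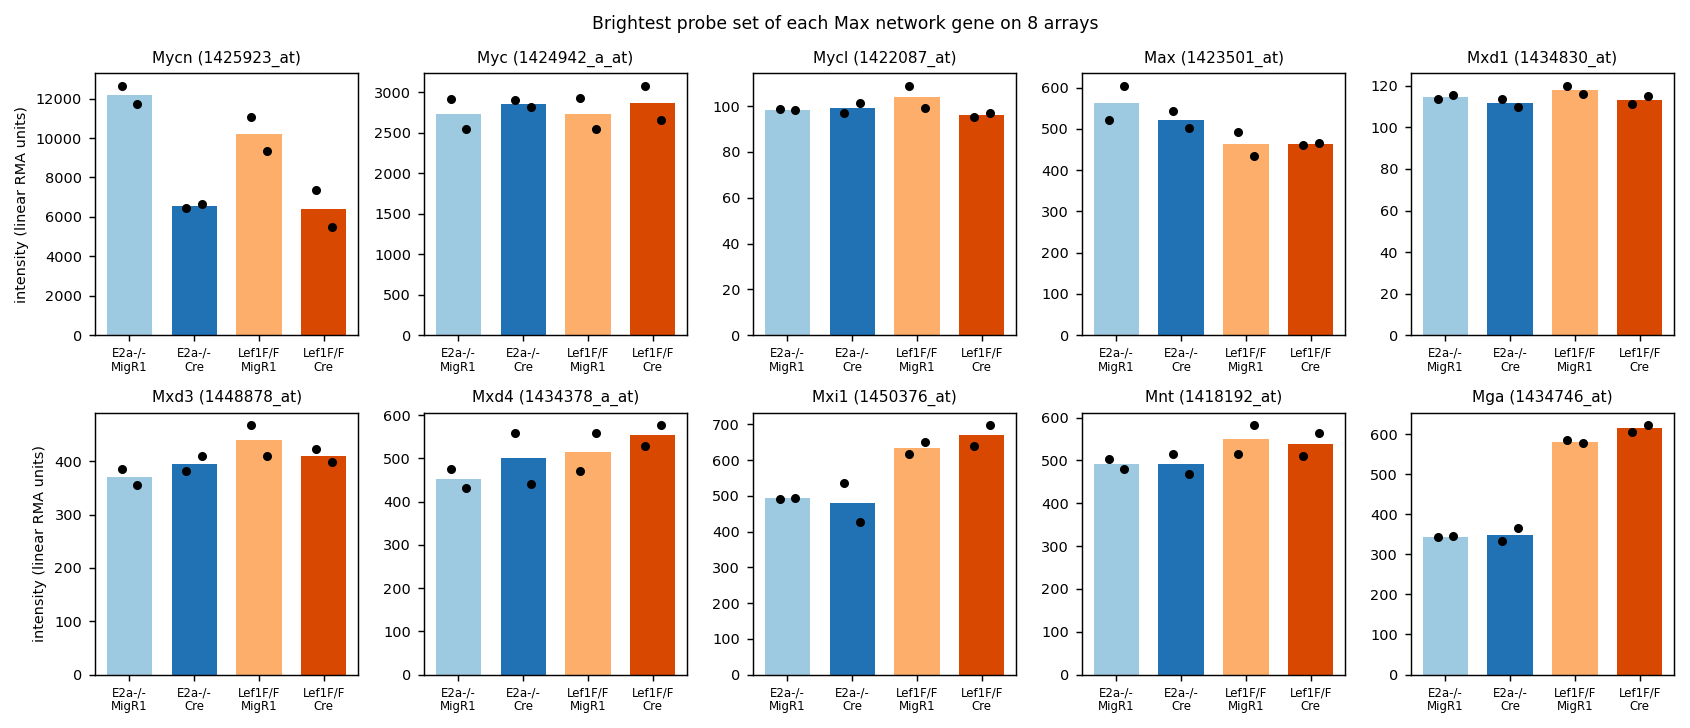
Intensity (linear RMA units, vertical axis from 0) of the brightest probe set of each of the 10 genes in the 4 groups. Bars are the mean of 2 arrays and points the single arrays. Mycn stood between 5481 and 7353 units on the MigR1-Cre arrays of both lines and between 9317 and 12653 on the MigR1 arrays, and Mga stood at 579 units or more in the Lef1F/F line and at 366 or less in the E2a-/- line with both vectors. Heights of different genes come from different probes and are not comparable.

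Without Cre, Mycn stood at 12183 ± 664 units (SD, n = 2) in the E2a-/- and 10183 ± 1225 (SD, n = 2) in the Lef1F/F line. The line difference was -0.26 on the log2 scale (95% interval -0.58 to 0.05, adjusted p = 0.329, limma), and was -0.05 between the MigR1-Cre arrays. The selection of Mycn used these MigR1 values as well, so the p-value is given as a description. The order of the 4 group means was E2a-/- MigR1, Lef1F/F MigR1, E2a-/- MigR1-Cre (6555 ± 120, SD, n = 2) and Lef1F/F MigR1-Cre (6417 ± 1324, SD, n = 2). The values of the first pair did not overlap, as was so for 50.2% of all probe sets, and the values of the last pair overlapped.

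Myc, the broadly expressed founding member, read alike in all groups. Its only probe set (1424942_a_at) read 2923 and 2550 units in the E2a-/- line with MigR1, 2907 and 2815 with MigR1-Cre, 2924 and 2544 in the Lef1F/F line with MigR1, and 3081 and 2663 with MigR1-Cre. The groups overlapped throughout. The log2 difference with Cre was 0.07 in the E2a-/- line (95% interval -0.17 to 0.31) and 0.07 in the Lef1F/F line (-0.17 to 0.31), each with an adjusted p of 1 (limma). Thus the interval of Myc allowed at most a fall of 0.17 on the log2 scale in either line. The line difference was 0.00 (95% interval -0.24 to 0.24, adjusted p = 0.996). Mycl, the third Myc gene, read low, with 2 of its 3 probe sets dim. They read 95.3 to 109, 58.4 to 77.5 and 58.3 to 66.0 units on the 8 arrays, and their log2 differences with Cre lay between -0.11 and 0.11.

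Max, the common partner, read 520 and 605 units in the E2a-/- line with MigR1, 542 and 502 with MigR1-Cre, 494 and 436 in the Lef1F/F line with MigR1, and 460 and 465 with MigR1-Cre. Its vector groups overlapped in both lines, and its log2 difference with Cre was -0.11 (95% interval -0.32 to 0.11) in the E2a-/- and 0.00 (-0.22 to 0.21) in the Lef1F/F line.

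None of the 24 probe sets of the other 9 genes passed an adjusted p of 0.05 (limma) with Cre in either line. In the Lef1F/F line 0.167% of all probe sets (75 of 45037) met that threshold, with 0 of 24 members called and 1 at an unadjusted p under 0.05. In the E2a-/- line 0% passed (0 of 45037, with 836 at an unadjusted p under 0.05), and 0 of 24 members had an unadjusted p under 0.05. For the difference of both Cre effects 0.02% of all probe sets passed, with 0 members called and 1 at an unadjusted p under 0.05. For the mean Cre effect of both lines 0.0377% passed, with 0 members called and 0 at an unadjusted p under 0.05. The log2 differences of the 24 probe sets lay between -0.11 and 0.22 in the Lef1F/F line, with a median of 0.01, and between -0.14 and 0.13 in the E2a-/- line, with a median of -0.01, against medians of 0.00 over all probe sets. The 95% intervals of these 24 reached at most from -0.54 to 0.51 in the Lef1F/F and from -0.65 to 0.42 in the E2a-/- line. With groups that do not overlap as the measure, 7 of 24 members separated the vectors in the Lef1F/F line, where 29.1% of all probe sets did, and 4 of 24 in the E2a-/- line, where 31.4% did, so neither share of the members exceeded the background by more than a probe set.

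The smallest p among them belonged to Mxd4, a repressor partner of Max that rises as cells leave the cycle. Its dimmest probe set (1422575_at) read 92.5 and 90.2 units in the E2a-/- line with MigR1, 88.4 and 78.0 with MigR1-Cre, 89.8 and 79.5 in the Lef1F/F line with MigR1, and 96.6 and 100.1 with MigR1-Cre. The values with Cre were higher in the Lef1F/F (log2 difference 0.22, unadjusted p = 0.0313, adjusted p = 0.989, limma) and lower in the E2a-/- line (-0.14, adjusted p = 1), and neither passed. The difference of both was 0.36 (adjusted p = 1, limma). The brighter Mxd4 probe sets did not share this order, with log2 differences of 0.11, 0.04 and 0.04 in the Lef1F/F and 0.13, 0.07 and 0.02 in the E2a-/- line.

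**Figure D2:**
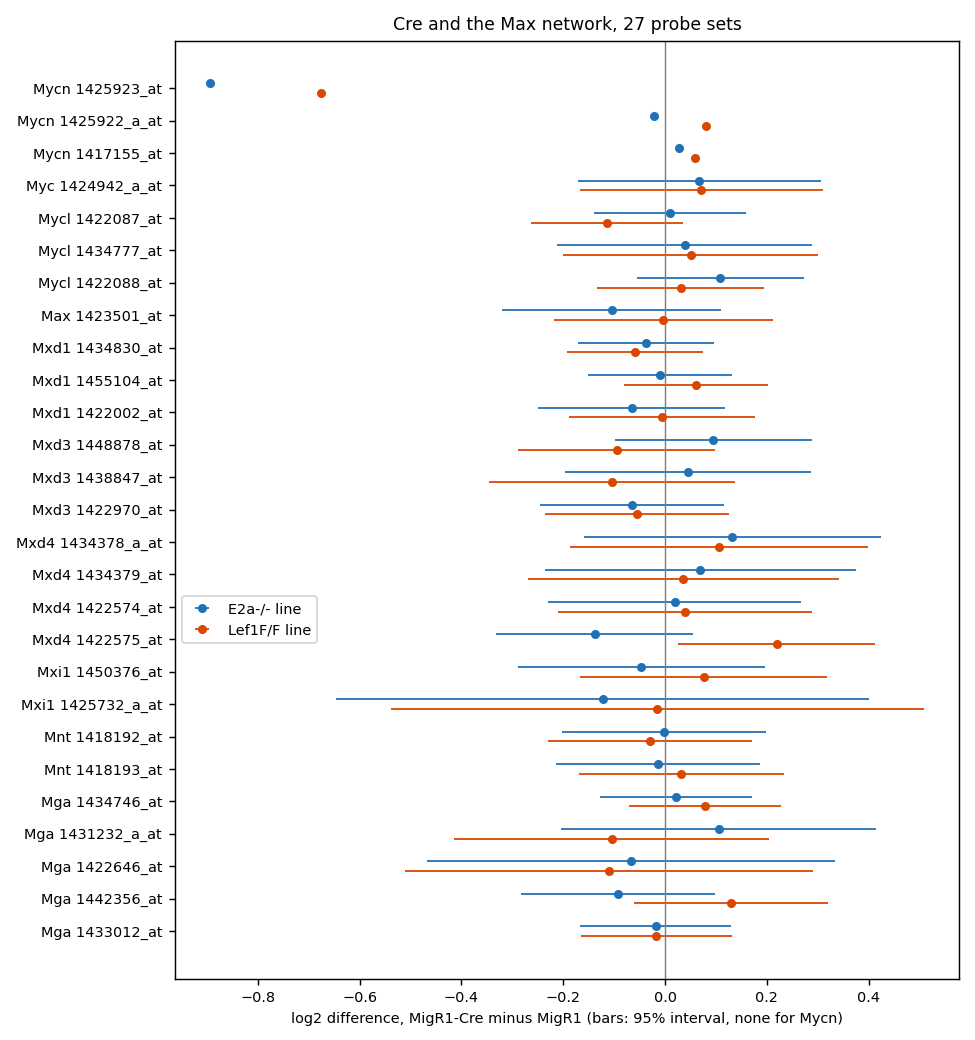
Log2 difference between MigR1-Cre and MigR1 arrays (horizontal axis) for the 27 probe sets in the E2a-/- line (blue) and the Lef1F/F line (orange), with points for the estimate and bars for its 95% interval from limma, drawn for all genes but Mycn. The bright Mycn probe set stood at -0.89 and -0.68, and the 24 probe sets of the other genes lay between -0.14 and 0.22.

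Between the lines themselves, members passed about as often as all probe sets did. In MigR1 arrays 4829 of 45037 probe sets (10.7%) met the threshold, and 3 of the 27 members did (11.1%), a share near the background. All 3 were higher in the Lef1F/F line, 2 of them probe sets of Mga and 1 of Mxd3. By lack of overlap, 17 of 27 members (63%) separated the lines in MigR1 arrays, where 50.2% of all probe sets did. Over the arrays of both vectors together, 20.5% of all probe sets passed and 5 of 27 members did (18.5%), adding Mxi1 and Max.

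Mga read 343 and 345 units on the E2a-/- MigR1 arrays, 333 and 366 on the E2a-/- MigR1-Cre arrays, 585 and 579 on the Lef1F/F MigR1 arrays, and 606 and 623 on the Lef1F/F MigR1-Cre arrays (1434746_at). The lines did not overlap with either vector. The difference with MigR1 was 0.76 ± 0.06 (SE) on the log2 scale (adjusted p = 0.000181, limma), which is 169% of the E2a-/- level, and the difference between the MigR1-Cre arrays was 0.82. A second Mga probe set (1431232_a_at) read 219 and 202 units in the E2a-/- line with MigR1, 235 and 218 with MigR1-Cre, 361 and 277 in the Lef1F/F line with MigR1, and 322 and 268 with MigR1-Cre. Its difference with MigR1 was 0.59 ± 0.13 (SE, adjusted p = 0.0279, limma), and 0.38 between the MigR1-Cre arrays. That call was lost, with adjusted p-values up to 0.191, without any 1 of the 4 E2a-/- arrays or without Lef1F/F MigR1 array 1, where the difference was 0.40. The other 3 Mga probe sets were dimmer, between 60.3 and 150.2 units, and their line differences were 0.04, -0.06 and -0.07, so that 2 of 5 probe sets carried the difference and the mean over all 5 was 0.25 with no call. With Cre, Mga read 0.02 (95% interval -0.13 to 0.17) in the E2a-/- and 0.08 (-0.07 to 0.23) in the Lef1F/F line on 1434746_at.

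Mxd3, a repressor partner expressed in S phase, was read by 3 probe sets. 1438847_at read 198 and 197 units in the E2a-/- line with MigR1, 185 and 224 with MigR1-Cre, 242 and 284 in the Lef1F/F line with MigR1, and 245 and 243 with MigR1-Cre. Its line difference with MigR1 was 0.41 ± 0.10 (SE, adjusted p = 0.0446, limma), and 0.26 between the MigR1-Cre arrays. This call too was fragile, with adjusted p-values up to 0.228. It was lost without either E2a-/- MigR1 array, without Lef1F/F MigR1 array 2, where the difference was 0.29, and without either Lef1F/F MigR1-Cre array. The brightest Mxd3 probe set, 1448878_at, stood at 371 ± 21.4 against 439 ± 41.0 units (SD, n = 2 each, log2 difference 0.24, adjusted p = 0.125, limma) and the third at 0.08 (adjusted p = 0.632, limma).

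Mxi1, which competes with Myc for Max, read 492 and 496 units in the E2a-/- line with MigR1, 536 and 426 with MigR1-Cre, 617 and 652 in the Lef1F/F line with MigR1, and 640 and 698 with MigR1-Cre (1450376_at). The lines did not overlap with either vector. The difference did not pass in the MigR1 arrays (0.36 ± 0.11, SE, adjusted p = 0.0727, limma) and passed over both vectors (0.42 ± 0.07, SE, adjusted p = 0.00493, limma). Its dimmer probe set read 131 and 200 units in the Lef1F/F line with MigR1 and 129 and 199 with MigR1-Cre, against 112 to 127 in the E2a-/- line, and did not pass (0.39, adjusted p = 0.397, limma). Max lay lower in the Lef1F/F line, at -0.27 with MigR1 (95% interval -0.49 to -0.06, adjusted p = 0.117, limma) and -0.22 over both vectors (adjusted p = 0.0466, limma).

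Mnt, the repressor present in most cells, read 503, 480, 515 and 468 units in the E2a-/- and 516, 583, 511 and 565 in the Lef1F/F line (1418192_at, MigR1 arrays first). Its line difference was 0.16 (95% interval -0.04 to 0.36, adjusted p = 0.358, limma), and the groups were close. The brightest Mxd4 probe set read 432 to 559 units in the E2a-/- and 472 to 577 in the Lef1F/F line (difference 0.18, 95% interval -0.11 to 0.47), and the other 3 stood at -0.06, -0.16 and -0.11. Mxd1, known for its rise as cells differentiate, was at 86.6 to 120.1 units in its 3 probe sets on all arrays, with line differences of 0.04, 0.08 and -0.08.

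**Figure D3:**
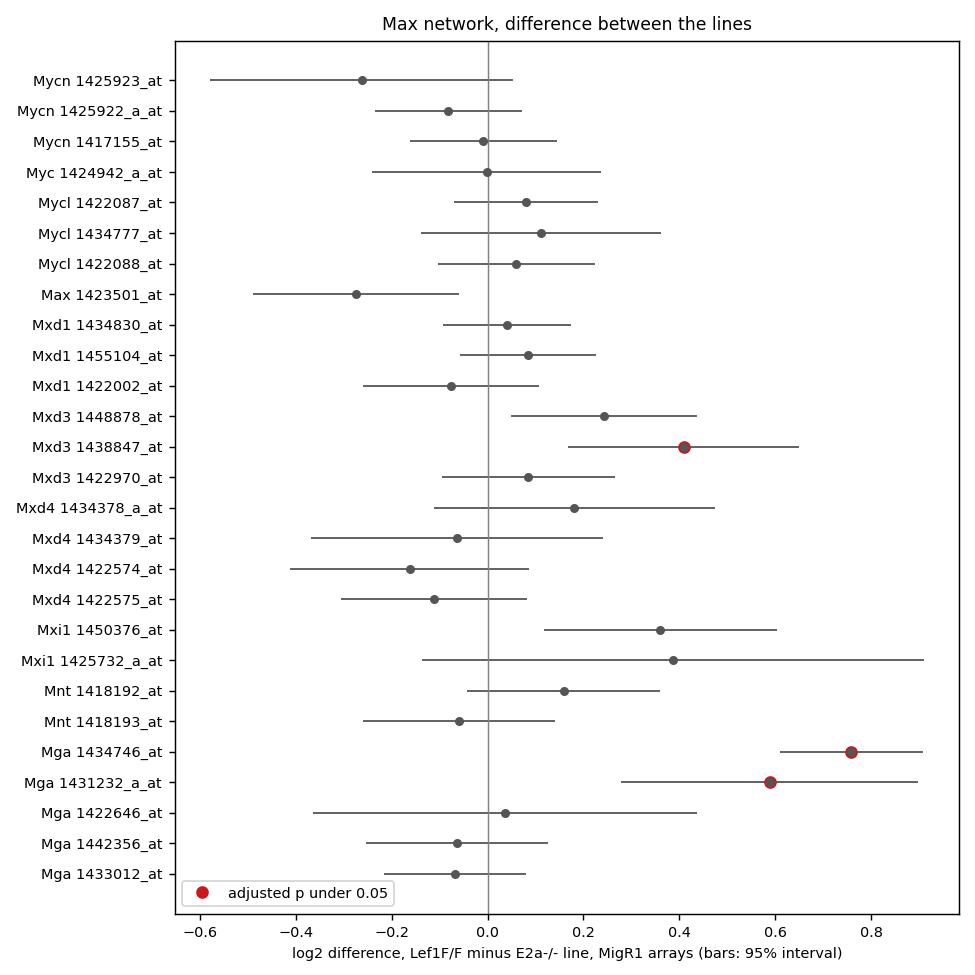
Log2 difference between the Lef1F/F and the E2a-/- line in MigR1 arrays (horizontal axis) for the 27 probe sets, with bars for the 95% interval from limma and red rims for an adjusted p under 0.05. The 3 called probe sets, 2 of Mga and 1 of Mxd3, stood between 0.41 and 0.76, Myc at 0.00 and Max at -0.27.

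The genes around the network were read in 15 lists of 196 entries, of which 175 were measured, each by its brightest probe set. With Cre, 0 genes of the Mlx branch, the corepressors, the coactivators, the turnover genes, the targets or the chromosomal neighbours passed in either line (limma, adjusted p of 0.05). Among the listed upstream regulators Lef1 alone passed, in the Lef1F/F line.

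Genes that Myc and Mycn are known to induce lay slightly lower with Cre in both lines, with no gene called. In the Lef1F/F line 28 of 38 measured genes (73.7%) had a log2 difference below 0, against 49.1% of all probe sets and 52.3% of those above the 40th percentile, and the median was -0.03. In the E2a-/- line 26 of 38 (68.4%) did, against 49.2% and 51%, and the median was -0.02. For the mean of both effects it was 31 of 38 (81.6%), against 48.7% and 52.5%, with a median of -0.04. These medians were small beside the fall of Mycn itself, and the range was -0.35 to 0.10 in the Lef1F/F and -0.17 to 0.18 in the E2a-/- line. The medians over all probe sets were 0.0019 in the Lef1F/F and 0.0013 in the E2a-/- line. Over those above the 40th percentile they were -0.0047 and -0.0018. Single differences had a median size of 0.05 over all probe sets (sign ignored), a measure unlike a signed median. A relation of the target values to the fall of Mycn was not tested. The smallest p belonged to Mthfd2, a mitochondrial folate enzyme, in the Lef1F/F line (log2 difference -0.30, adjusted p = 1, limma), and to Eif4e, the cap-binding factor of translation, in the E2a-/- line (-0.17, adjusted p = 1, limma). Odc1, the first enzyme of polyamine synthesis and a classical Myc target, is given as an example chosen after its values were seen. It stood at -0.13 and -0.08. Repressed targets were split, with 8 of 15 (53.3%) below 0 in the Lef1F/F and 6 of 15 (40%) in the E2a-/- line, against 49.1% and 49.2% of all probe sets. Among these the smallest p in the Lef1F/F line was that of Gadd45a, a stress-response gene (-0.47, adjusted p = 0.0888, limma).

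Among coactivators and partners, 10 of 13 (76.9%) were below 0 in the Lef1F/F and 3 of 13 (23.1%) in the E2a-/- line. Of probe sets above the 40th percentile, as all 13 were, 52.3% and 51% were below 0 in these lines. The smallest p in both belonged to Zbtb17, the Miz1 partner through which Myc represses (-0.09 and 0.09, adjusted p = 1 each, limma). Of 11 turnover genes 9 were above and 2 below 0 in each line, so that 18.2% were below 0, against the same 52.3% and 51%. They ranged from -0.14 to 0.15 in the Lef1F/F and from -0.13 to 0.30 in the E2a-/- line. Trim32 stood at -0.14 in the Lef1F/F, and Skp2, a ubiquitin ligase subunit that acts on Myc, at -0.13 in the E2a-/- line (adjusted p = 1 each, limma). Txnip of the Mlx branch, a glucose-responsive target of Mlx pairs, read 0.15 and 0.12 (adjusted p = 1 each, limma). Of 7 measured genes near Mycn on chromosome 12, 5 were below 0 with Cre in each line. That was 71.4%, against 49.1% of all probe sets in the Lef1F/F and 49.2% in the E2a-/- line. None of them fell as far as Mycn. Ddx1, the adjoining gene on one side, read -0.08 in the Lef1F/F and 0.00 in the E2a-/- line, and Cyria, which adjoins on the other, was dim (50.0 units in E2a-/- MigR1 cells). Nbas, next after Ddx1, read -0.10 and 0.11, and Trib2 read -0.21 and -0.10 (adjusted p = 1 each, limma).

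**Figure D4:**
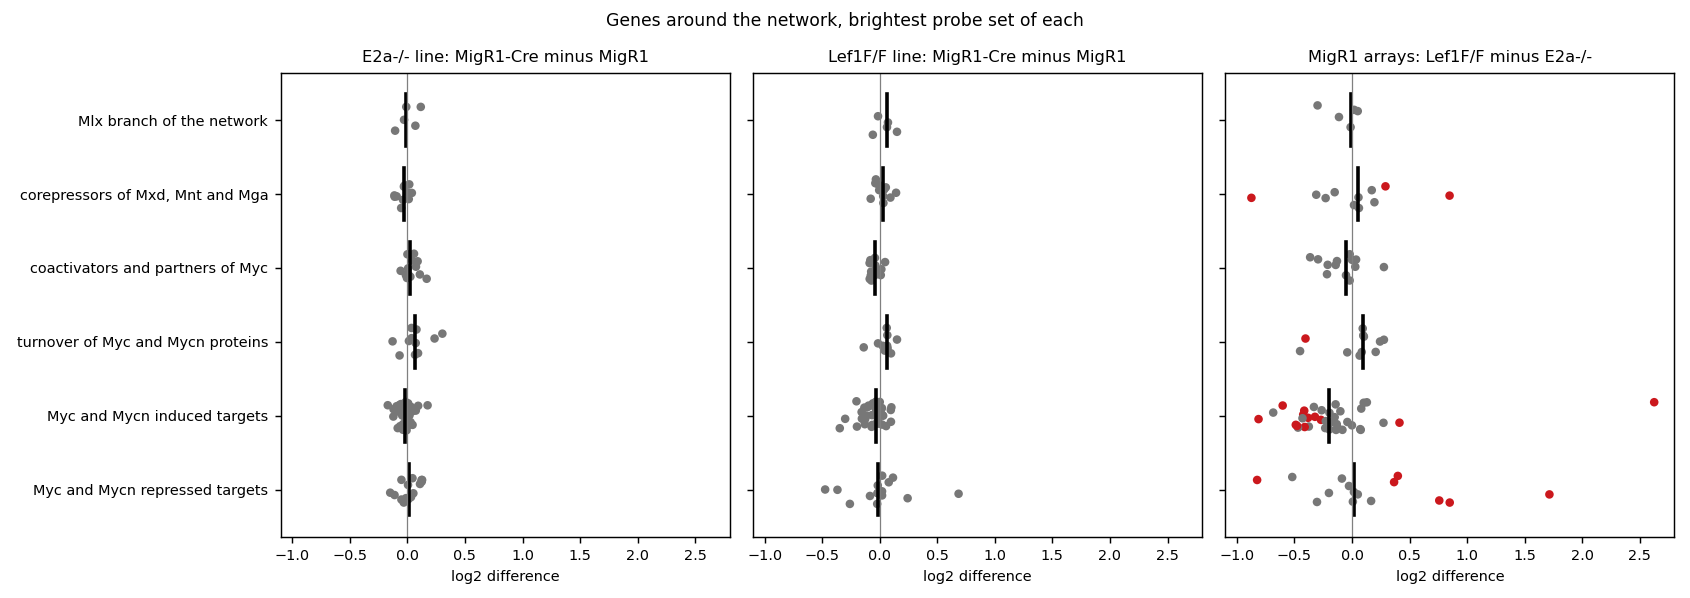
Log2 differences (horizontal axes) of the genes in 6 lists, for Cre in the E2a-/- line, Cre in the Lef1F/F line and the Lef1F/F minus the E2a-/- line in MigR1 arrays. Points are genes, vertical bars the list medians, and red marks an adjusted p under 0.05 (limma). No gene of these lists is red for Cre, while 10 induced targets are red below 0 between the lines.

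Most induced targets had lower values in Lef1F/F than in E2a-/- MigR1 cells. Of 38 genes, 10 were lower and 2 higher (31.6% called, against 10.7% of all probe sets and 16.7% of those above the 40th percentile, as all 38 were), 30 lay below 0 and the median was -0.20, against -0.01 over all probe sets. The 10 were Tfrc, Srm, Nme1, Slc19a1, Nme2, Shmt2, Nop56, Nolc1, Polr1b and Nop58, which serve iron uptake, polyamine and nucleotide supply, folate metabolism and ribosome production. Tfrc, the transferrin receptor, read 7203 units in E2a-/- and 4106 in Lef1F/F MigR1 cells (log2 difference -0.81, adjusted p = 0.000363, limma). Srm, spermidine synthase, read 4226 and 2785 units (-0.60, adjusted p = 0.00256, limma). The 2 that were higher were Ccnd2, the cyclin D2 gene, at 71.7 against 448 units (2.62, adjusted p = 0.000258, limma), and Apex1, a DNA repair enzyme (0.41, adjusted p = 0.0205, limma). The number lower was 5 without E2a-/- MigR1 array 1 and 4 without E2a-/- MigR1 array 2, in the latter case without the calls of Nme1 and of 5 more, and 7 to 12 without each other array. The Apex1 call was lost without either E2a-/- MigR1 array or Lef1F/F MigR1 array 2. Markers of dividing cells, read by their brightest probe sets, did not share this direction. Their summed intensity was 48303 to 49434 in Lef1F/F and 45381 to 46490 in E2a-/- MigR1 cells. Of these, 1 of 9 passed (11.1%, against 10.7% of all probe sets and 16.7% of those above the 40th percentile). It was Top2a, which was higher in the Lef1F/F line (0.37, adjusted p = 0.0433, limma). No marker of this list passed without either E2a-/- MigR1 array or Lef1F/F MigR1 array 1, and with the mean of all probe sets of each gene 1 was higher and 3 were lower. The part of division in the target values was not tested.

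Of 15 repressed targets, 5 were higher and 1 lower in the Lef1F/F line (40% called). The share was 10.7% of all probe sets and 16.7% of those above the 40th percentile, as 12 of the 15 were. Ndrg1, a stress-induced gene that Mycn represses in neuroblastoma, read 675 and 2216 units (1.71, adjusted p = 0.000162, limma). Cdkn1b, the p27 inhibitor of cyclin-dependent kinases, stood at 0.85 (adjusted p = 0.0166, limma), and Cdkn1a, the p21 inhibitor, was the 1 lower, at -0.82 (adjusted p = 0.00666, limma). The others were Ndrg2 (0.76), Cdkn2c (0.40) and Gadd45a (0.37), named to complete the count. Without either E2a-/- MigR1 array 3 were higher and 0 lower, and without Lef1F/F MigR1 array 2 the numbers were 3 and 2. The Cdkn1a call was among those lost without either E2a-/- MigR1 array. That of Cdkn1b was lost without either of them or Lef1F/F MigR1 array 2, that of Gadd45a without E2a-/- MigR1 array 1 or either Lef1F/F MigR1 array, and that of Cdkn2c without E2a-/- MigR1 array 2.

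Of 11 corepressors, which work with the repressing members, 2 were higher, 1 was lower and 8 did not pass in the line comparison (27.3% called, against 16.7% of probe sets above the 40th percentile). E2f6, the partner of Mga in its Polycomb-type complex, read 938 units in E2a-/- and 512 in Lef1F/F MigR1 cells (-0.87, adjusted p = 8.06e-05, limma), opposite in sign to Mga. Sap30, a subunit of the Sin3 complex that Mxd proteins recruit, read 1615 and 2917 units (0.85, adjusted p = 0.00136, limma). Hdac1, its deacetylase, stood at 0.29 (adjusted p = 0.0243, limma), a call lost without either E2a-/- MigR1 array or Lef1F/F MigR1 array 2. None of 13 coactivators passed in the line comparison (smallest adjusted p = 0.075, Kat2a, -0.36, limma), nor did any of 5 genes of the Mlx branch (smallest adjusted p = 0.078, Mlx, -0.30, limma). Of 11 turnover genes 1 was called (9.09%, against 10.7% of all probe sets and 16.7% of those above the 40th percentile). It was Fbxw7, which was lower in the Lef1F/F line. This ligase subunit marks Myc, Mycn and Notch1 for degradation, and it stood at -0.40 (adjusted p = 0.0123, limma), a call lost without either E2a-/- MigR1 array or Lef1F/F MigR1 array 2.

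Of 16 upstream regulators 7 were higher and 1 lower in the Lef1F/F line (50% called). The share was 10.7% of all probe sets and 16.7% of those above the 40th percentile, as 14 of the 16 were. Hes1, a Notch target, read 316 and 826 units (1.39, adjusted p = 2.33e-06, limma), Gli1, a Hedgehog factor, 163 and 347 (1.07, adjusted p = 0.0106, limma), and Lef1 3313 and 6522 (0.97, adjusted p = 0.000368, limma). E2f1, an E2F factor of the cell cycle, was the 1 lower (-0.65, adjusted p = 0.0199, limma). Without either E2a-/- MigR1 array the numbers were 2 and 0, and without Lef1F/F MigR1 array 2 they were 4 and 0, with the E2f1 call lost each time and the Gli1 call lost in the first case. Of 7 measured neighbours each of Mycn and of Myc, 1 was higher and 1 lower (28.6% called in each list). The share was 10.7% of all probe sets and 16.7% of those above the 40th percentile. Trib2 on the Mycn side was higher (1.15, adjusted p = 0.000126, limma) and Nbas lower (-0.31, adjusted p = 0.0479, limma). On chromosome 15 near Myc, Lratd2 was higher (2.00, adjusted p = 2.97e-06, limma) and the non-coding Pvt1 lower (-0.42, adjusted p = 0.0284, limma). The Nbas and Pvt1 calls were lost without any 1 of the 4 E2a-/- arrays or Lef1F/F MigR1 array 2, and that of Nbas also without either Lef1F/F MigR1-Cre array. The median line difference was -0.01 on chromosome 12, -0.04 on 15 and -0.02 on 2, which hold Mycn, Myc and Mga. It was largest on chromosome 14, at 0.28, where 45.1% of probe sets above the 40th percentile passed, against 16.7% of all such probe sets. The part of this shift in the calls above was not tested.

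The probe sets whose pattern was most like that of Mycn were sought among 4194 with 1 gene symbol, a signal above the 40th percentile and at least 0.5 of the spread of Mycn over the 8 arrays. The correlations are across 8 arrays that form 4 groups, and describe these arrays only. The highest were those of Spsb4 (Pearson r = 0.70), Abhd8 (0.68), Cul5 (0.65), Ccne1 (0.63), the cyclin E1 gene, and a dimmer Lef1 probe set (0.62). Their Cre effects were not alike. That Lef1 probe set stood at -2.54 in the Lef1F/F and -0.14 in the E2a-/- line, and Spsb4 at -0.49 and -0.11. The most opposite were Cenpf (-0.75), a kinetochore gene, Il10 (-0.65), Mzb1 (-0.64), Pcmtd1 (-0.63) and Wnk1 (-0.62). Within the network, r with Mycn was between -0.59 and 0.50 for the other probe sets, with -0.09 for Myc and 0.36 for Max.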

How the data were processed

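RNA from GFP+ cells of 2 leukemia lines was extracted in Trizol, labelled with a 3' in vitro transcription kit and hybridised to 8 arrays, 2 per group. The authors used RMAExpress to apply RMA to the scans, and the deposited values are linear intensities per probe set, with no pooling. RMA equalises the arrays' distributions and compresses low intensities, and precision is limited by the small number of arrays. Log2 was taken with no offset, and 4 group means were fitted with limma 3.58.1 (lmFit, eBayes; 4 residual and 3.99 prior degrees of freedom) in R 4.3.3. All p-values are two-sided and adjusted by Benjamini-Hochberg over 45037 probe sets, at a threshold of 0.05, and the fit was tested on simulated data. Replicate numbers were given in record order and were not taken to pair arrays. Symbols came from the platform annotation (34945 probe sets with 1 symbol, 932 with several, 9160 with none), and genes of lists were read by their brightest probe set. All probe sets of the 10 members were named, and of other lists up to 3 genes past the threshold with the largest change, or the 1 with the smallest p. The members and lists were chosen with earlier results of these data known. Mycn was not tested with Cre. Alternatives were other moderation, a filter, repeated normalisation, an offset of 50, array weights, gene means, fewer arrays, a block and leaving out each array.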

Additional observations from a re-analysis of the deposited data

How the results depend on the processing

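With Cre, 0 of 24 probe sets of the other 9 genes passed in either line, in the difference or in the mean, under each alternative that was run. Some of these settings could call little. With only the 4 arrays compared, 0 of 45037 probe sets passed in the Lef1F/F line, where Lef1 had an adjusted p of 0.135 (limma). For the line difference, where 3 of 27 passed, averaging each gene's probe sets left 1, Mxd3, and the mean over both vectors gave 5. Leaving out each array gave 1 to 3, with 1, the Mga probe set 1434746_at, left without either E2a-/- MigR1 array. The offset of 50 left 2, without Mxd3, and only the 4 arrays compared gave 2, the same Mga probe set and Mxi1. That Mga probe set passed in 14 of 15 settings (highest adjusted p = 0.0728, as a gene mean). The log2 difference of Mycn with Cre was -0.18 in the Lef1F/F and -0.30 in the E2a-/- line as the mean of all its probe sets, because that mean includes the other 2, which read 49.6 to 90.6 units. Without single arrays it was -0.46 to -0.89 and -0.84 to -0.95. No member or network-list gene past the threshold turned its direction under an alternative. The dividing-cell markers went from 1 higher and 0 lower to 1 and 3 as gene means.

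Lef1F/F arrays of equal number correlated across vectors (0.9975 for each pair) more than within a vector (0.9945 and 0.9943), a pairing that the labels do not give and that an earlier analysis of these data had seen. With those pairs as a replicate block, 8 of 27 members passed in the line difference, where 21.3% of all probe sets did: both Mga probe sets, 2 of Mxd3, 2 of Mxi1, Max (adjusted p = 0.0328) and the bright Mycn probe set (adjusted p = 0.0156, with 0.805 the highest in other settings). For Mycn this p-value is a description, since its selection used these arrays. Of the 38 induced targets 19 were lower and 3 higher with the block. With 2 arrays per group and low intensities for Mycl, Mxd1 and 3 of 5 Mga probe sets, small differences were not detectable.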
